A study of Mus musculus with 17 samples.

Results

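The genes described here are 10 genes of the smooth muscle contractile apparatus, also carried by the peritubular myoid cells of the testis, measured by RNA-seq of newborn mouse testes and forebrain. The rule takes them by name, through the table rows whose Ensembl identifier belongs to each of the 10 symbols in GENCODE. All 10 members (Acta2, Actg2, Myh11, Myl9, Tagln, Cnn1, Smtn, Lmod1, Des and Synpo2) were found, each in 1 row, among 55359 genes in the table (32846 with any count). In the testes all 10 passed the filter on low counts, and in the forebrain 7 did, since Actg2, Cnn1 and Lmod1 were too low there.

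The study asked whether osteocalcin, a hormone made by osteoblasts, acts through the mother and the embryo on the organs of the offspring. RNA came from testes and from forebrain, hippocampus included (the labels name it hippocampus), of mice at postnatal day 1. WT pups were born from WT mothers. Ocn+/- pups (Osteocalcin Heterozygous in the labels) and Ocn-/- pups (Osteocalcin KO) were born from Ocn-/- mothers, and the mutant allele was that of 1 strain made by homologous recombination. There were 2 WT, 3 Ocn+/- and 3 Ocn-/- testis libraries and 3 forebrain libraries of each genotype. The study's figure gives 2 WT forebrains, while the labels and the counts hold 3, and all 3 were used here. In both mutant groups the genotype of the pup, that of the mother and the litter differ from WT together and cannot be told apart, whereas the comparison of Ocn-/- with Ocn+/- holds the mother's genotype. Apart from the WT forebrains, the study counts the libraries of a group as mice, while the labels give neither pup nor litter. The p-values therefore measure the spread between these libraries, which may share a litter.

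Peritubular myoid cells are flat smooth-muscle-like cells that ring the seminiferous tubules, contract to move sperm and fluid, and build the tubule's basement membrane together with Sertoli cells. Blood vessels carry the same contractile genes in the smooth muscle cells of arteries and arterioles, while pericytes of capillaries hold little of them. The serum response factor, with myocardin-family partners, switches these genes on by binding a DNA element called the CArG box. In bulk tissue, fewer cells of a type and less RNA per cell cannot be told apart, and neither can myoid cells and vessel smooth muscle.

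Total counts ran from 7302401 to 8289015 in the testes and from 6518151 to 14621584 in the forebrain, where the lowest total belonged to WT replicate 3, a library in which the ribosomal RNA gene Rn18s-rs5 took 8.5% of the counts. The osteocalcin genes could not check the genotypes, since Bglap had 0 to 2 counts in the testes and 0 to 5 in the forebrain. The tissue labels were checked against markers. The 5 neuronal genes read summed to between 5577 and 6828 CPM in the forebrain and between 34.6 and 55.0 in the testes, and the 6 Sertoli cell genes to between 1122 and 1709 CPM in the testes and between 26.3 and 41.6 in the forebrain. CPM here is the usual count scaled to a library's total, with TMM factors that correct for a few abundant genes.

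All 10 members were higher in the testes than in the forebrain in edgeR's quasi-likelihood test over all 17 libraries, with log2 differences from 1.60 for Synpo2 to 6.37 for Acta2 and a median of 4.62. That test called 84.4% of 17800 genes, so a call alone says little about these genes. The sizes stand beside a median of 0.0871 over all genes tested. Scaling by library size alone raised the median over all genes to 0.404 and that of the members to 4.94.

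Per length of transcript, the order in the testes was led by the contractile filament. Acta2 (chr19:34217737-34232990, minus strand, GRCm39), the smooth muscle alpha-actin of the thin filament, had a median of 172 CPM per kilobase over 8 testes, with a lowest value of 141 and a highest of 215. Myl9 (chr2:156617084-156623579, plus strand), the regulatory light chain whose phosphorylation starts contraction, followed with a median of 114, a lowest of 91.6 and a highest of 138, just below the lowest Acta2 value. Tagln (chr9:45840909-45847404, minus strand), the actin-binding transgelin or SM22, had a median of 58.4 and ranged from 38.5 to 86.0. Acta2, Myl9 and Tagln did not overlap with each other or with the genes after them. Myh11 (chr16:14012399-14109236, minus strand), the smooth muscle myosin heavy chain and the motor of the thick filament, had a median of 22.2 CPM per kilobase and ranged from 17.2 to 30.5. Smtn (chr11:3467520-3490612, minus strand), smoothelin of contractile smooth muscle, had a median of 16.7 and overlapped with it, reaching from 13.6 to 22.2.

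Des (chr1:75320511-75345223, plus strand), the intermediate filament protein desmin, had a median of 9.02 CPM per kilobase in the testes. Cnn1 (chr9:22010512-22020926, plus strand), the actin-binding calponin, and Actg2 (chr6:83489887-83513551, minus strand), the gamma-actin of visceral muscle, had medians of 5.29 and 5.23. Lmod1 (chr1:135252509-135295907, plus strand), leiomodin, which seeds actin filaments, had 2.04, and Synpo2 (chr3:122870168-123029798, minus strand), the Z-disc and actin-bundling protein synaptopodin-2 or myopodin, had 1.47. Each of these 5 genes overlapped with its neighbour in the order.

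In the forebrain the order was another one. Myl9 led with a median of 5.16 CPM per kilobase over 9 libraries (3.59 to 7.73), above all others. Smtn with 2.15, Tagln with 2.09 and Acta2 with 2.04 followed and overlapped with each other. Synpo2, the lowest member in the testes, was the fifth in the forebrain with a median of 0.492, ahead of Des with 0.364 and Myh11 with 0.255, and the 3 overlapped. Actg2, Lmod1 and Cnn1 rested on 1 to 11, 0 to 15 and 0 to 4 counts per library. Scaled within each tissue, the 10 members summed to between 886 and 1405 CPM in the testes and to between 25.8 and 32.9 CPM in the forebrain, while 10 pericyte genes summed to between 445 and 727 CPM in the testes and to between 244 and 333 CPM in the forebrain. Myocd, the smooth muscle coactivator myocardin, had 62 to 139 counts in the testes and 0 to 3 in the forebrain.

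**Figure D1:**
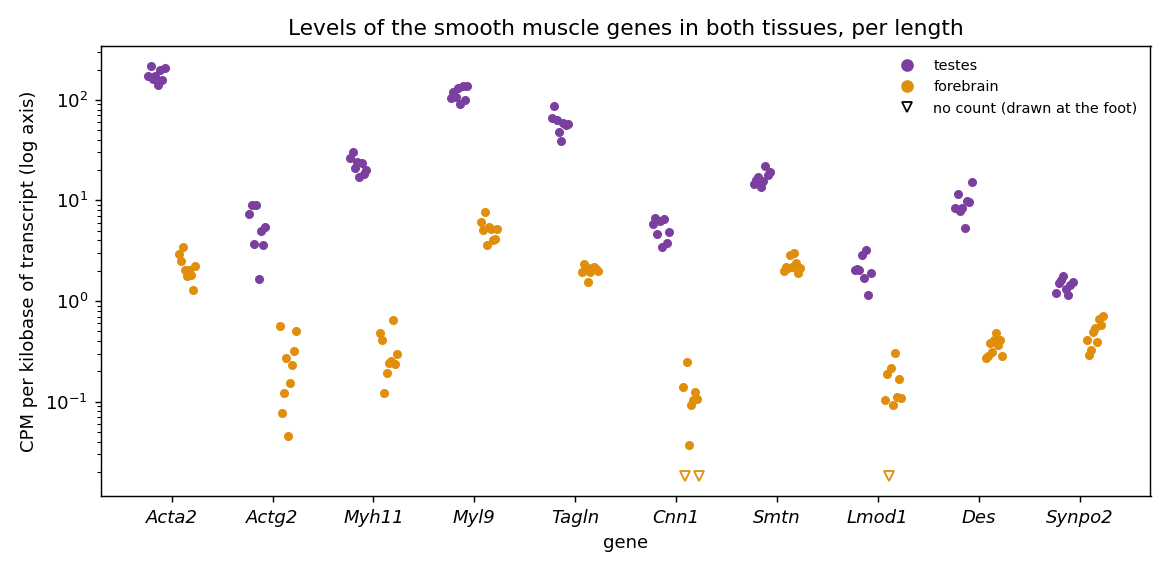
Level of each smooth muscle gene in CPM per kilobase of its transcript (vertical, log axis), with 1 point for each of 8 testes (purple) and 9 forebrains (orange). Acta2 sits between 141 and 215 in the testes and at 3.41 or less in the forebrain, Synpo2 shows the narrowest gap, and the open triangles at the foot are forebrain libraries of Cnn1 and Lmod1 without a count.

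Promoters were read for the members that lie in the RefSeq table (GRCm38.p6, 250 bases before to 50 after the start), which were 7: Acta2, Cnn1, Des, Lmod1, Myl9, Smtn and Synpo2. They were searched for the CArG box, on both strands since the box reads alike on each, and for a form of it with 1 G or C among the 6 central bases. A full box lay in 1 of the 7, Myl9, against 1.81% of 27025 genes in the table, and the 1-substitution form in Acta2 and Myl9, against 9.69% of genes. The 2 promoters are shown because Acta2 and Myl9 are the members with the highest level per length in the testes and the only ones of the 7 with a match. Capitals mark the matches.
Acta2 promoter (GRCm38.p6 chr19:34255324-34255623, minus strand): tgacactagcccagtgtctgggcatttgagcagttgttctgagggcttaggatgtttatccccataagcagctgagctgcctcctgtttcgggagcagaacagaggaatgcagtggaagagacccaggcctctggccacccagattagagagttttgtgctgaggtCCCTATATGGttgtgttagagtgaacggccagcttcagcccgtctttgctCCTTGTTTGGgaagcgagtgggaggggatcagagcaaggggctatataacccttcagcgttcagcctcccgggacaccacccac
Myl9 promoter (GRCm38.p6 chr2:156775214-156775513, plus strand): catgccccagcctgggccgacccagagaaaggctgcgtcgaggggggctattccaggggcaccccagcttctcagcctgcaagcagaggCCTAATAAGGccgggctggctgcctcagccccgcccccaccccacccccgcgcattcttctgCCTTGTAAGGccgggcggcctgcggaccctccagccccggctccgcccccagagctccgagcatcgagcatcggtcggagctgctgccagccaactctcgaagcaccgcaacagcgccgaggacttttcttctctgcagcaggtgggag

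In Acta2 both matches, CCCTATATGG and CCTTGTTTGG, are of the 1-substitution form, and they begin 84 and 34 bases before the RefSeq start. In Myl9 the full box, CCTAATAAGG, begins 161 bases before the start and the 1-substitution form, CCTTGTAAGG, 99 bases before it. Of 27 genes of the wider smooth muscle list found in the table, 4 had a full box (14.8%). A match is a description of letters and not a measured binding site, and no match says only that the letters are absent from that window.

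The first question on genotype was whether the members differed between mutant and WT testes. None of the 10 was called in Ocn+/- against WT in edgeR's test, in which 8.25% of 16361 genes were called. At an unadjusted p under 0.05, 3 of 10 passed (Myh11 and Tagln lower, Smtn higher), beside 25.9% of all genes, and DESeq2 called 1 of 10, beside 11.8%. Of the 10, 5 were higher and 5 lower and the median log2 difference was -0.0003 (-0.24 to 0.10 over left-out libraries), against 0.00658 over all genes. In Ocn-/- against WT none was called either, where the background was 5.64%. There 2 of 10 passed the unadjusted threshold, Myh11 and Tagln, both lower, beside 23.0% of all genes, and DESeq2 called 1 of 10, beside 8.76%. These counts are near the shares of all genes. In Ocn-/-, 7 of 10 members were lower with a median of -0.32 (-0.47 to -0.15 over left-out libraries) against -0.00638 over all genes.

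Myh11, the myosin motor, passed the unadjusted threshold in both mutants, as did Tagln. Myh11 had 195 and 224 CPM in the 2 WT testes, 174, 136 and 149 in Ocn+/- and 155, 182 and 126 in Ocn-/-. Every mutant testis lay below both WT testes. The log2 difference was -0.46 (SE 0.152, adjusted p = 0.0709 in edgeR) in Ocn+/- and -0.44 (SE 0.152, adjusted p = 0.0927) in Ocn-/-, so neither was called. DESeq2 gave an adjusted p of 0.0413 for Ocn+/- and 0.0681 for Ocn-/-. Without Ocn-/- replicate 2 the difference in Ocn-/- was -0.58 with an adjusted p of 0.0275, and without WT replicate 2 it was -0.32 with 0.567.

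Tagln, the actin-binding transgelin, had 122 and 159 CPM in WT, 111, 104 and 108 in Ocn+/-, and 117, 89.6 and 70.9 in Ocn-/-. All 6 mutant testes again lay below both WT testes, and the 3 Ocn+/- values lay close together. The log2 difference was -0.38 (SE 0.175, adjusted p = 0.185 in edgeR) in Ocn+/- and -0.60 (SE 0.175, adjusted p = 0.0595) in Ocn-/-, the latter with an adjusted p of 0.0197 in DESeq2. It was -0.79 with 0.0178 without Ocn-/- replicate 1 and -0.38 with 0.52 without WT replicate 2. Of the 50-base stretches of the Tagln transcript, 47.6% also lie in another gene's transcript, mostly in Gm48529, so its counts depend on how RSEM shared reads.

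The groups did not overlap for 4 members in Ocn+/- against WT, beside 46.7% of all genes tested, and for 2 in Ocn-/- against WT, beside 42.0%. The WT group holds 2 testes. The 4 were Actg2, Myh11 and Tagln below WT and Smtn above it, and the 2 were Myh11 and Tagln.

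Of the other contractile filament genes, Acta2 had 538 and 673 CPM in WT, 628, 490 and 656 in Ocn+/- and 511, 552 and 438 in Ocn-/-. All groups overlapped, with a log2 difference of -0.03 (SE 0.149) in Ocn+/- and -0.28 (SE 0.149) in Ocn-/-. In Ocn+/- the 95% interval ran from -0.35 to 0.28 for Acta2 and from -0.78 to -0.13 for Myh11, and the difference between the genes was not tested. Myl9 had 163 and 187 CPM in WT, 217, 155 and 214 in Ocn+/- and 167, 207 and 141 in Ocn-/-. Its groups overlapped too, and the log2 differences were 0.16 (SE 0.174) and -0.03 (SE 0.173).

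Actg2, the visceral actin, spread the most. It had 13.6 and 16.5 CPM in WT, 9.30, 6.69 and 10.2 in Ocn+/-, and 6.76, 16.7 and 3.03 in Ocn-/-. The Ocn+/- testes were all below WT, whereas among the Ocn-/- testes replicate 2 was above both WT values and replicate 3 held 24 counts, the fewest of any testis. The log2 difference was -0.79 (SE 0.568) in Ocn+/- and -0.77 (SE 0.566, adjusted p = 0.466 in edgeR) in Ocn-/-. Without Ocn-/- replicate 2 the latter became -1.61 with an adjusted p of 0.0137 in edgeR, and without Ocn-/- replicate 3 it became -0.37 with 0.603. Each of these libraries thus moved the value, in opposite directions.

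**Figure D2:**
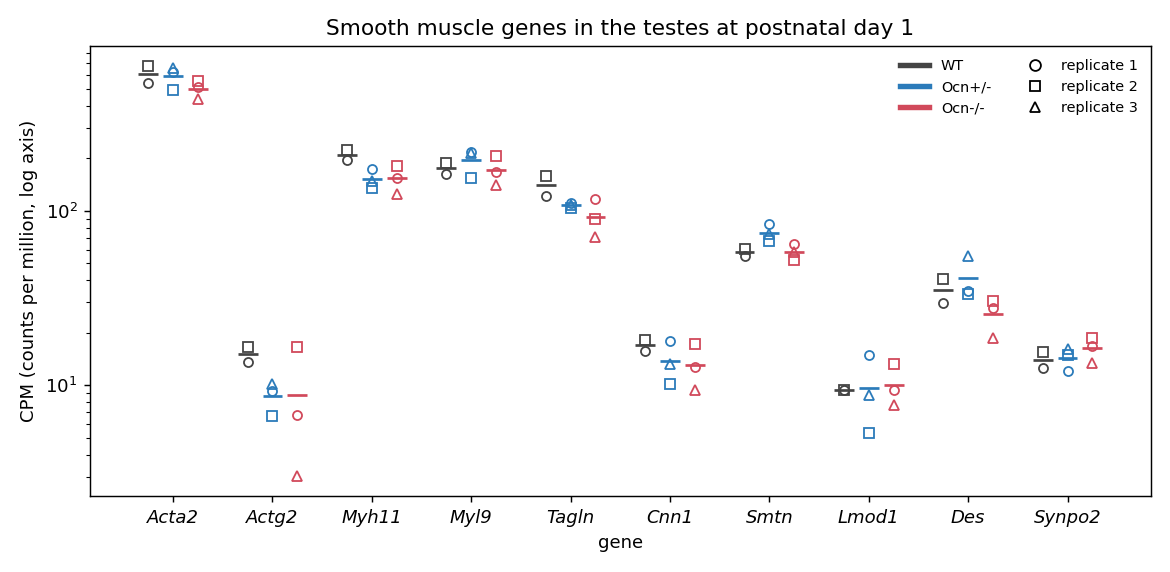
CPM (vertical, log axis) of the 10 genes in each testis library, with WT in grey, Ocn+/- in blue and Ocn-/- in red, marker shapes for replicates and short bars for group means. Myh11 and Tagln lie below both WT testes in all 6 mutant testes, and the red triangle, Ocn-/- replicate 3, is the lowest point of 7 genes.

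Among the other filament-binding genes, Smtn lay on the other side of WT in Ocn+/-. Its values were 55.1 and 60.6 CPM in WT, 84.4, 67.4 and 73.7 in Ocn+/-, and 65.0, 52.0 and 58.1 in Ocn-/-. The Ocn+/- testes were above all testes of both other groups. The log2 difference from WT was 0.38 (SE 0.143, adjusted p = 0.106 in edgeR) in Ocn+/- and 0.01 (SE 0.143) in Ocn-/-. Cnn1 had 15.8 and 18.2 CPM in WT, 17.9, 10.2 and 13.3 in Ocn+/- and 12.8, 17.2 and 9.35 in Ocn-/-, all overlapping. Of its 50-base stretches 38.3% are shared with Elof1 when both strands are read, yet its expected counts were whole numbers in every library. Lmod1 had 9.46 CPM in both WT testes, 15.0, 5.30 and 8.80 in Ocn+/-, and 9.37, 13.3 and 7.71 in Ocn-/-, which put mutant values on both sides of WT in each group.

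Of the cytoskeletal link genes, Des had 29.8 and 40.5 CPM in WT, 34.8, 33.6 and 54.9 in Ocn+/- and 27.6, 30.3 and 18.7 in Ocn-/-. The mutants overlapped with WT, and the log2 differences were 0.22 (SE 0.249) and -0.46 (SE 0.251). Synpo2 had 12.6 and 15.5 CPM in WT, 12.1, 14.9 and 16.2 in Ocn+/- and 16.8, 18.7 and 13.4 in Ocn-/-, again with overlap.

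With the mother's genotype held, Ocn-/- against Ocn+/- testes called none of the 10 members, and 0% of all genes (0 of 16361, with 1881, or 11.5%, at an unadjusted p under 0.05, and 80, or 0.655%, called by DESeq2, no member among the 80). Des and Smtn, 2 of 10, passed the unadjusted threshold, both lower in Ocn-/-, with log2 differences of -0.68 (SE 0.226, adjusted p = 0.319 in edgeR) and -0.36 (SE 0.127, adjusted p = 0.323). For these 2 the groups did not overlap, beside 15.5% of all genes. Myh11 stood at 0.01 (SE 0.138), with a 95% interval from -0.28 to 0.30.

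**Figure D3:**
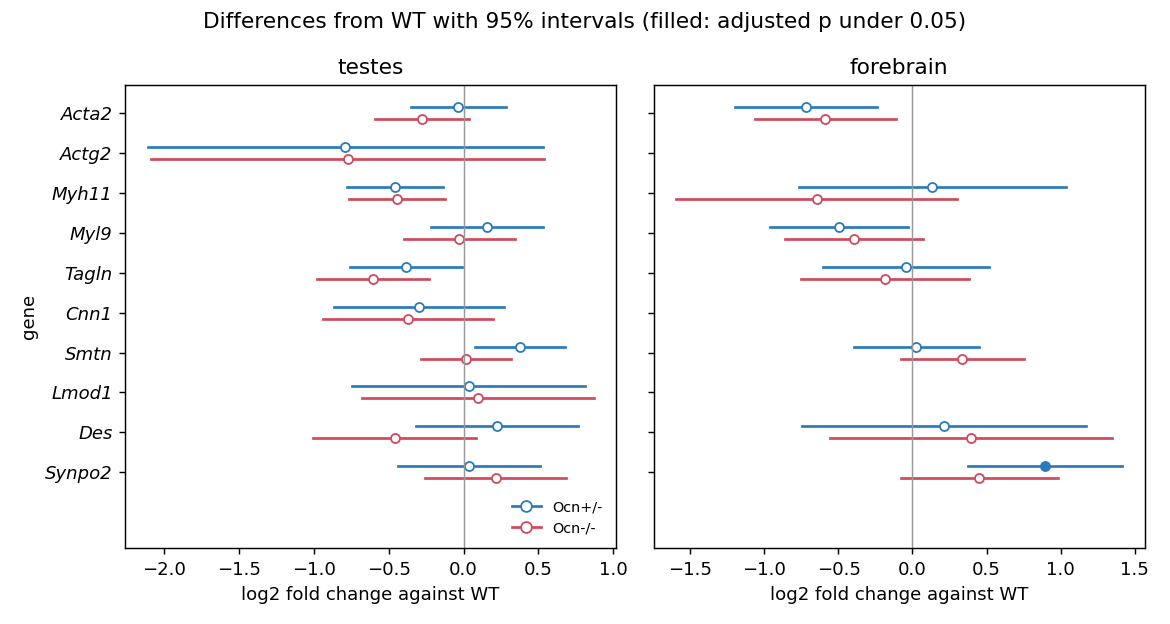
Log2 fold change against WT (horizontal) of each gene in Ocn+/- (blue) and Ocn-/- (red), in testes and forebrain, with 95% intervals as lines. The filled point, Synpo2 in Ocn+/- forebrain at 0.90, is the only call, and the 3 genes without points in the forebrain had too few counts to be tested.

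Most members varied together from testis to testis. Across the 8 testes, as a description, the log2 CPM of Acta2 correlated with the mean of the other members at r = 0.90, as did Cnn1, and Actg2, Myl9 and Myh11 at 0.83, 0.82 and 0.79. Des was at 0.65, Tagln at 0.64 and Lmod1 at 0.50, while Synpo2 at 0.14 and Smtn at 0.09 stood apart. The points share library and depth and pool the genotypes. They include Ocn-/- replicate 3, the lowest library for 7 of the 10 members, whose part in these values was not tested. Single pairs of members reached an r as low as -0.34. In the forebrain the same values for the 7 genes tested lay between -0.43 for Synpo2 and 0.32 for Tagln. The genes outside all lists most like the mean of the members across the testes were Ism1, Nars1, Ggt1, Zfp692 and Mnd1 (r from 0.95 to 0.97, n = 8). Across the forebrains they were Aifm3, Ppfia4, Gm20707, Mrpl38 and Cdh23 (r from 0.88 to 0.95, n = 9). Both sets are the highest r picked among all such genes with a mean of at least 1 CPM, over few libraries, so high values arise by selection alone. In the forebrain the mean also stands for members that did not vary together.

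In the testes 1 library stood apart. Ocn-/- replicate 3 held the lowest value of 7 of the 10 members (Acta2, Actg2, Myh11, Myl9, Tagln, Cnn1 and Des). Its members summed to 886 CPM, against 1022 to 1405 in the other 7 testes. The same library had the lowest sum of 7 fibroblast and meningeal genes (4288 CPM, against 5396 to 8184), of 5 mesothelial genes (76.6 CPM, against 113 to 204) and of 5 Wolffian duct genes (23.3 CPM, against 35.0 to 57.5), and the highest of the 6 Sertoli genes (1709 CPM, against 1122 to 1386). The part of this composition in the members' values was not tested. Without this library, the difference from WT in Ocn-/- was -0.44 (adjusted p = 0.113 in edgeR) for Tagln, -0.32 (adjusted p = 0.242) for Myh11, -0.28 (adjusted p = 0.546) for Des and -0.19 (adjusted p = 0.545) for Acta2.

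Vessel markers were read beside the members, and none was called in Ocn-/- against Ocn+/- testes. Of 8 endothelial genes, edgeR called 3 lower in Ocn+/- testes and 6 lower in Ocn-/- testes, led by Flt1, a VEGF receptor, at -1.43 and -1.53 on the log2 scale, and none higher. Without WT replicate 2 the counts were 1 and 3, and without WT replicate 1 they were 2 and 3. The 8 genes summed to 634 and 639 CPM in WT, to 393, 454 and 457 in Ocn+/- and to 370, 383 and 397 in Ocn-/-, without overlap of either mutant group with WT. The 10 pericyte genes summed to 620 and 727 CPM in WT, to between 534 and 584 in Ocn+/- and to between 445 and 504 in Ocn-/-. Of the 9 tested, 5 were called lower in Ocn-/-, among them Rgs5 of mural cells at -0.95 and the PDGF receptor Pdgfrb at -0.64. Ndufa4l2 (-1.60 to -0.97 over the main fit and its alternatives) and Abcc9 (-0.93 to -0.48) were also among the 5. These calls held under 14, 13, 10 and 7 of 14 alternatives for Rgs5, Pdgfrb, Ndufa4l2 and Abcc9. In Ocn+/- 1 was called lower, Rgs5 at -0.76. The single call became 0 without WT replicate 2. The 5 became 3 with library size alone, 1 without WT replicate 2, 2 without WT replicate 1 or Ocn-/- replicate 2, and 3 without Ocn-/- replicate 1, Ocn-/- replicate 3 or Ocn+/- replicate 3. The 10 smooth muscle genes summed to 1155 and 1405 CPM in WT, 1022 to 1304 in Ocn+/- and 886 to 1178 in Ocn-/-, with overlap. How far vessels carry the members' RNA in the testis was not tested.

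**Figure D4:**
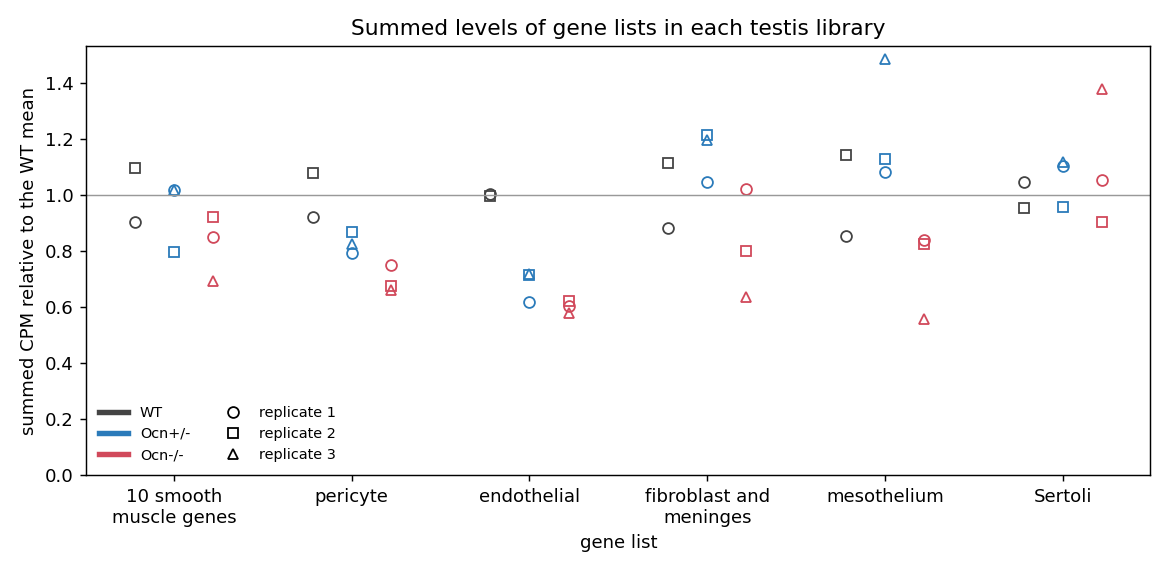
Summed CPM of 6 gene lists in each testis library divided by the mean of the 2 WT testes (vertical, starting at 0), colours for genotype and shapes for replicate. The endothelial sums of all 6 mutants lie between 0.581 and 0.718 of WT, while the sums of the 10 smooth muscle genes spread from 0.692 to 1.02 in the mutants and from 0.902 to 1.10 in WT.

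Other cell types of the testis were read the same way. Of 5 adipocyte genes 2 were tested. Fabp4, a fatty acid binding protein, was called lower in both mutants (-1.65 and -2.06), the other lay above WT (0.61 and 0.73, not called), and the sums, 23.3 and 24.9 CPM in WT and 19.6 to 26.4 in the mutants, overlapped. Among 5 mesothelial and 7 fibroblast genes the call was Krt19, a keratin, lower in Ocn-/- (-1.23). The 6 fetal Leydig genes, of the cells that make fetal androgen, summed to 1772 and 1691 CPM in WT, to 869, 714 and 1249 in Ocn+/- and to 1134, 743 and 958 in Ocn-/-, so that all 6 mutant testes were below both WT testes. Of these genes 5 lay below WT in each mutant, with medians of -1.08 and -1.14, and 1 was called, the luteinizing hormone receptor Lhcgr (-1.23 and -1.19), lost in Ocn-/- without WT replicate 2. The sums of the 6 Sertoli genes overlapped, with medians of 0.05 and 0.12, and 1 gene, Sox9, was called higher in both mutants (0.92 and 1.10). The 5 Wolffian duct genes lay on both sides of WT, 3 above and 2 below in Ocn+/- and 2 above and 3 below in Ocn-/-, with medians of 0.16 and -0.58, and the calls were Pax2 in Ocn+/- (1.60) and Lhx1 in both (1.18 and 1.04), all higher. The part of these cell types in the members' values was not tested. None of 5 germ cell genes was called. Of 9 interstitial and hedgehog response genes, which include Ptch1 and Gli1 that respond to the Sertoli signal for myoid cells, 1 was called, Pdgfra lower in Ocn+/- (-0.41). Of 14 alternatives (13 for Pax2), the calls in Ocn+/- held under 11 for Fabp4, 14 for Lhcgr, 13 for Sox9, 8 for Pax2, 12 for Lhx1 and 7 for Pdgfra, and those in Ocn-/- under 13 for Fabp4, 10 for Krt19, 13 for Lhcgr, 14 for Sox9 and 8 for Lhx1. Skeletal muscle genes were low, with 8 genes summing to between 10.7 and 23.2 CPM over all testes. That range still overlaps with those of the members Des, 18.7 to 54.9 CPM, and Lmod1, 5.30 to 15.0 CPM. The part of skeletal muscle in their values was not tested.

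In the forebrain 1 of 7 tested members was called in Ocn+/- against WT, beside 3.89% of 16076 genes, and none in Ocn-/- against WT, beside 4.85%. DESeq2 called none in either, beside 5.52% and 7.31%. At an unadjusted p under 0.05, 3 of 7 passed in Ocn+/- (Synpo2 higher, Acta2 and Myl9 lower), beside 20.3% of all genes, and 1 of 7, Acta2, in Ocn-/-, beside 21.7%. The median log2 difference of the 7 was 0.03 and -0.18, against 0.00587 and 0.00606 over all genes, and it ran from -0.08 to 0.17 and from -0.28 to 0.11 over left-out libraries.

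The call was Synpo2. It had 3.36, 2.42 and 2.67 CPM in WT (44, 21 and 15 counts), 5.41, 4.73 and 5.85 in Ocn+/- (80, 61 and 87 counts) and 4.07, 4.42 and 3.24 in Ocn-/- (51, 66 and 43 counts). The Ocn+/- libraries lay above all others, and the Ocn-/- libraries overlapped with WT. The log2 difference was 0.90 (SE 0.249, adjusted p = 0.0478 in edgeR) in Ocn+/- and 0.45 (SE 0.255, adjusted p = 0.31) in Ocn-/-. In DESeq2 the adjusted p in Ocn+/- was 0.0688, and leaving out any of 8 of the 9 forebrain libraries, all but Ocn-/- replicate 3, lost the call, with differences between 0.79 and 1.07. Of its 50-base stretches, 12.4% are shared with another gene.

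Acta2 lay on the other side of WT in the same libraries. It had 7.32, 6.34 and 8.54 CPM in WT, 4.46, 3.26 and 5.58 in Ocn+/- and 5.11, 4.42 and 5.12 in Ocn-/-, on 42 to 96 counts. All 6 mutant forebrains were below all 3 WT forebrains. The log2 difference was -0.72 (SE 0.23, adjusted p = 0.0814 in edgeR) in Ocn+/- and -0.59 (SE 0.229, adjusted p = 0.138) in Ocn-/-, neither called. Without WT replicate 3, the shallowest library, they were -0.62 (adjusted p = 0.26) and -0.49 (adjusted p = 0.364). The 8 endothelial genes summed to 223 to 267 CPM in WT, 177 to 215 in Ocn+/- and 180 to 237 in Ocn-/-. Of them 5 lay below and 3 above WT in each mutant, with medians of -0.16 and -0.10. Called lower were 3 in Ocn+/- and 2 in Ocn-/- (both 1 without WT replicate 2, without WT replicate 3 or with library size alone, the former 1 without any Ocn+/- library and the latter 1 without Ocn-/- replicate 1 or 2), led by Flt1 (-1.35 and -1.28). The 10 pericyte genes summed to 295 to 333 CPM in WT, 244 to 312 in Ocn+/- and 246 to 292 in Ocn-/-. Of them 8 and 9 lay below WT, with medians of -0.23 and -0.17, and 1 was called in each mutant, the potassium channel subunit Abcc9 (-0.76 and -0.72, under 13 and 13 of 15 alternatives). Other lists were read too. The 5 neuronal genes summed to 6317 to 6828 CPM in WT and 5577 to 6220 CPM in the mutants. The 5 choroid plexus genes summed to 573 to 736 CPM in WT, 571 to 860 in Ocn+/- and 320 to 531 in Ocn-/-. The 8 skeletal muscle genes summed to 3.7 to 4.6 CPM in WT and 5.8 to 7.8 CPM in the mutants. The sums of fibroblast and meningeal genes overlapped. The part of all these cells in the values of Acta2 was not tested.

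**Figure D5:**
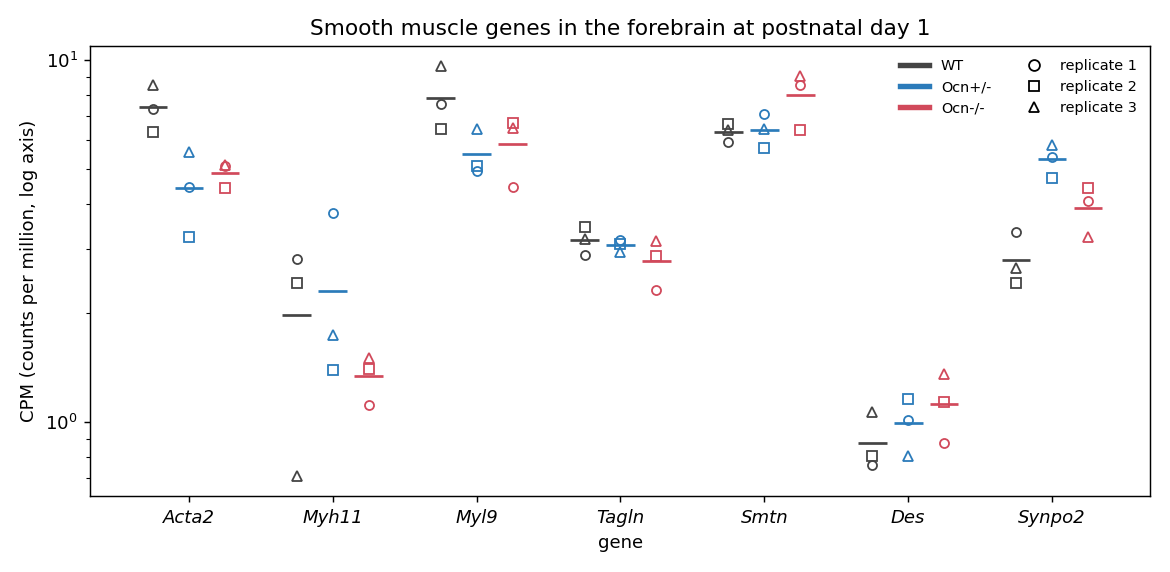
CPM (vertical, log axis) of the 7 genes tested in the forebrain in each library, with WT in grey, Ocn+/- in blue and Ocn-/- in red, marker shapes for replicates and short bars for group means. The 3 WT points of Acta2, between 6.34 and 8.54, are above all mutant points, and the Ocn+/- points of Synpo2, between 4.73 and 5.85, are above all others.

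Myl9 had 7.55, 6.45 and 9.61 CPM in WT, 4.94, 5.12 and 6.45 in Ocn+/- and 4.47, 6.70 and 6.47 in Ocn-/-. The groups touched or overlapped, and the log2 differences were -0.50 (SE 0.224) and -0.40 (SE 0.223). Smtn had 5.95, 6.68 and 6.40 CPM in WT, 7.10, 5.73 and 6.45 in Ocn+/- and 8.55, 6.43 and 9.03 in Ocn-/-, and Tagln stayed between 2.32 and 3.46 CPM in all 9 libraries. Myh11 rested on 4 counts in WT replicate 3 and on 14 to 56 elsewhere, and Des on 6 to 18 counts. Their 95% intervals in Ocn+/-, from -0.77 to 1.04 for Myh11 and from -0.75 to 1.17 for Des, do not exclude a difference of the size seen for Synpo2.

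Without overlap with WT were Acta2 (below) and Synpo2 (above) in Ocn+/-, 2 of the 7 members tested beside 26.8% of all genes tested, and Acta2 in Ocn-/-, 1 of 7 beside 26.8%. In Ocn-/- against Ocn+/- forebrain none of the 7 was called, beside 0.00622% of all genes (1 of 16076), none passed the unadjusted threshold, beside 3.20%, and DESeq2 called none, beside 0.0138%. Synpo2, lower in Ocn-/-, was the 1 member without overlap there, beside 7.77% of genes, with a log2 difference of -0.45 (SE 0.23).

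Whether the effect of the mutant genotypes differed between tissues was tested in 1 fit of all 17 libraries. None of the 10 members was called, beside 2.96% of 17800 genes. Acta2 alone, 1 of 10, passed the unadjusted threshold, beside 18.7% of all genes, with a difference of 0.48 (SE 0.209, adjusted p = 0.22 in edgeR) between the mean mutant effect in the testes and that in the forebrain. Synpo2 gave -0.56 (SE 0.292, adjusted p = 0.31) and Tagln -0.40 (SE 0.254, adjusted p = 0.412). A difference in response between testis and forebrain was therefore not shown for any member, Synpo2 included.

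The wider smooth muscle programme was read from 35 other genes of transcriptional control, contraction control and adhesion. In Ocn+/- testes 1 of 34 tested was called higher and 3 lower, with a median of -0.17, and in Ocn-/- testes 0 higher and 4 lower, with a median of -0.24. In the forebrain 1 was called higher and 4 lower of 30 in Ocn+/-, and 2 higher and 4 lower in Ocn-/-, with medians of -0.16 and -0.08. Left-out libraries moved these counts. The 4 calls in Ocn+/- testes became 0 without WT replicate 1, WT replicate 2 or Ocn+/- replicate 1, 1 without Ocn+/- replicate 3 and 7 without Ocn-/- replicate 2. The 4 in Ocn-/- testes became 0 without WT replicate 2, 1 without WT replicate 1, Ocn-/- replicate 1 or Ocn-/- replicate 3, 2 without Ocn+/- replicate 3, 7 without Ocn-/- replicate 2 and 8 without Ocn+/- replicate 2. In the forebrain the 5 became 2 or 3 without WT replicate 3 or any Ocn+/- library, and the 6 became 2 without WT replicate 3. These shares, up to 6 of 30, stand beside the 3.89% to 8.25% of all genes given above.

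Cald1 and Itga1 were called lower in all 4 comparisons with WT, which share their controls within a tissue. Cald1, caldesmon, which holds actin and myosin apart in relaxed smooth muscle and is also made in many other cells, had 470 and 507 CPM in WT testes, 261, 355 and 311 in Ocn+/- and 325, 372 and 287 in Ocn-/-. In the forebrain it had 53.7, 49.4 and 63.7 CPM in WT, 39.5, 32.9 and 39.0 in Ocn+/- and 37.1, 37.7 and 39.1 in Ocn-/-. In both tissues every mutant value was below every WT value. The log2 differences were -0.66 (adjusted p = 0.0121) and -0.57 (adjusted p = 0.0274) in the testes and -0.57 (adjusted p = 0.00709) and -0.54 (adjusted p = 0.0102) in the forebrain, all in edgeR. Without WT replicate 2 the testis values were -0.59 and -0.50 and were not called. The testis calls held under 11 and 10 of 14 alternatives and the forebrain calls under 15 and 14 of 15. Itga1, the collagen-binding integrin alpha-1 of smooth muscle and endothelium, fell by 0.88 and 0.80 on the log2 scale in the testes and by 0.52 and 0.65 in the forebrain. Its testis calls held under 10 and 7 of 14 alternatives and its forebrain calls under 9 and 14 of 15.

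The partners of the serum response factor that sense actin were called higher in some comparisons. Mrtfb had 62.7 and 65.4 CPM in WT testes against 82.0 to 99.6 in Ocn+/- and 83.5 to 90.4 in Ocn-/-, all mutants above WT, and was called in Ocn+/- (0.48, adjusted p = 0.0319 in edgeR). In the forebrain it was called in Ocn-/- (0.53, adjusted p = 0.0094). Mrtfa was called in Ocn+/- forebrain, at 41.1, 44.2 and 44.4 CPM against 30.5, 32.1 and 30.4 in WT (0.48, adjusted p = 0.015). Srf itself was not called in any comparison with WT, nor was Myocd in the testes, where alone it was tested. Lower were also Rock1, a kinase that raises myosin phosphorylation, in Ocn+/- testes (-0.51), the scaffold Palld (-0.62) and the crosslinker Actn1 (-0.51) in Ocn-/- testes, and the focal adhesion genes Vcl (-0.55 and -0.57) and Pdlim7 (-0.74 and -0.68) in both mutant forebrains. Ppp1r12b, a myosin phosphatase subunit, was higher in Ocn-/- forebrain (0.32). Of 14 alternatives, the calls held under 8 for Rock1, 12 for Palld and 7 for Actn1, and under 10 for Mrtfb in Ocn+/- testes. Of 15 in the forebrain they held under 10 and 12 for Vcl, 15 and 15 for Pdlim7, 12 for Ppp1r12b, 14 for Mrtfb and 13 for Mrtfa.

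The non-muscle and striated relatives of the members bear on reads that could be shared between near copies. Of 14 tested in the testes, 0 were called in Ocn+/- and 2, both lower, in Ocn-/-, namely the non-muscle myosin Myh10 (-0.57) and vimentin, Vim (-0.46), called under 10 and 8 of 14 alternatives. In the forebrain 1 of 14 was called lower in each mutant, the calponin Cnn3 (-0.37 and -0.41), called under 10 and 12 of 15. Myh11 shares 0.4% of its 50-base stretches with the non-muscle myosins, and Actg2 and Lmod1 share none with any gene.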

How the data were processed

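RNA from 8 testes and 9 forebrains was sequenced by the authors. Per the study's methods and the submitters' processing notes, reads were trimmed with Trim Galore 0.6.6, aligned to GRCm39 with STAR 2.7.8a and counted with RSEM 1.3.3. The authors deposited 1 table of RSEM expected counts per gene, not normalized, with no column left unassigned (0). The strand setting and annotation release are not given in the sources used here. RSEM divides reads that fit several genes, which can leave fractions in the expected counts. The transcripts of Tagln, Cnn1 and Smtn share the most 50-base stretches with other genes, matches on either strand included. Of these, Tagln and Smtn held fractions, while the counts of Cnn1 were whole numbers in every library.

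Libraries were grouped by their labels. Identifiers were matched to GENCODE on GRCm39 (54749 of 55359 found), and the expected counts made whole numbers by rounding. The 3 genotypes of a tissue entered 1 fit in edgeR 4.0.16 under R 4.3.3 (TMM, filterByExpr by genotype, robust quasi-likelihood, no covariates, two-sided), and both tissues together for the tissue and interaction tests. Calls needed an adjusted p (Benjamini-Hochberg, over all genes tested) below 0.05. DESeq2 1.42.0 was an alternative, beside library size scaling, other filters, only the 2 groups compared, a replicate block and each library left out. Levels per length use the canonical transcript. The members and lists were chosen with earlier results of these data known. All 10 members are named. From other lists up to 4 genes per direction are named, by size among those called, and the genes most like the members by Pearson's r on log2 CPM with a prior count of 2. Srf, Myocd, Ptch1, Gli1 and Acta1 are named outside this rule, with their values seen. The fits were also run on simulated counts. The changes set there were larger than the members' differences between genotypes in the main fits and lay only in genes with more counts. That run therefore does not speak to differences as small as those read here.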

Additional observations from a re-analysis of the deposited data

Results flagged for a closer look

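In the joint fit of both tissues, 5 of 127 genes tested from the lists read beside the members (3.94%, beside 2.96% of all genes) showed a mutant effect that differed between testes and forebrain in edgeR's interaction test. The values are the mean log2 difference of both mutants from WT in the testes minus that in the forebrain. Pdlim7, a LIM protein of actin filaments, gave 1.00 (SE 0.179, adjusted p = 0.00347), being called lower in both mutant forebrains and not in the testes. The non-muscle myosin Myh10 gave -0.56 (SE 0.127, adjusted p = 0.0178), the mural cell gene Rgs5 gave -0.88 (SE 0.21, adjusted p = 0.0279), the angiopoietin receptor Tek gave -0.92 (SE 0.234, adjusted p = 0.0327), and the Sertoli cell factor Sox9 gave 0.95 (SE 0.205, adjusted p = 0.014). Of 21 alternatives, the call held under 20 for Pdlim7, 19 for Sox9, 17 for Myh10, 16 for Rgs5 (adjusted p up to 0.181) and 13 for Tek (adjusted p up to 0.157). Myh10 had 370 and 382 CPM in WT testes and between 219 and 310 CPM in the 6 mutant testes. Sox9 had 49.4 and 50.9 CPM in WT testes and between 82.8 and 123 CPM in the 6 mutant testes. None of the 10 smooth muscle genes was among them. With at most 3 libraries in a group, no group's values were put to a test for a single outlying sample.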

How the results depend on the processing

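Of 1139 values of the members under alternatives, 53 lay on the other side of 0, and 0 of these passed the threshold. The count of members called, 0 in Ocn+/- against WT testes, was 1 with DESeq2 or without the filter (Myh11), 2 with only the 2 groups compared (Myh11 and Actg2), and 0 to 1 over left-out libraries. In Ocn-/- against WT testes it was 1 with DESeq2 or with at least 10 counts in every library (Tagln), 2 without the filter, and 0 to 2 over left-out libraries. In Ocn-/- against Ocn+/- testes it was 1 without the filter (Des). In Ocn+/- against WT forebrain it was 0 with library size alone or DESeq2 and 0 to 1 over left-out libraries. In testes against forebrain it was 5 of 5 with at least 10 counts in every library, since 5 members were left out by that filter.

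With library size alone, the log2 difference was 0.04 for Acta2 in Ocn+/- testes, 0.05 for Myl9 in Ocn-/- testes and 0.03 for Tagln in Ocn+/- forebrain, and 0.01 for Smtn between tissues, as with at least 10 counts. With a replicate block it was -0.18 for Actg2 and 0 for Myh11 in Ocn-/- against Ocn+/- testes and 0 for Smtn between tissues. The block moved no count of members called by over 1.5 times. Deviations of same-numbered libraries correlated between -0.09 and 0.15, so the numbers were not taken as pairs.

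Over left-out libraries, Ocn+/- against WT testes ran from -0.18 to 0.15 for Acta2, -0.42 to 0.35 for Lmod1, -0.04 to 0.48 for Des and -0.10 to 0.21 for Synpo2. Ocn-/- against WT testes ran from -0.19 to 0.09 for Myl9, -0.05 to 0.10 for Smtn and -0.15 to 0.26 for Lmod1. Ocn-/- against Ocn+/- testes ran from -0.82 to 0.42 for Actg2, -0.12 to 0.14 for Myh11, -0.32 to 0.17 for Cnn1 and -0.24 to 0.54 for Lmod1. Ocn+/- against WT forebrain ran from -0.42 to 0.48 for Myh11, -0.12 to 0.02 for Tagln and -0.05 to 0.10 for Smtn, and Ocn-/- against Ocn+/- forebrain from -0.01 to 0.26 for Myl9 and -0.04 to 0.33 for Acta2. The difference between tissues ran from -2.01 to 0.04 for Actg2, -0.51 to 0.14 for Myh11, -0.24 to 0.78 for Cnn1 and -0.07 to 0.07 for Smtn. The members' median was -0.30 to 0.03 over left-out libraries in Ocn-/- against Ocn+/- testes, and -0.29 with DESeq2 in Ocn-/- forebrain. The causes were not tested.

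Over all genes, calls numbered 1350 in Ocn+/- against WT testes (2149 without the filter, 2084 with only the 2 groups), 922 in Ocn-/- (1763 without the filter), 0 in Ocn-/- against Ocn+/- testes (80, 252 and 3 with DESeq2, no filter and at least 10 counts, and 47 and 4 without Ocn+/- replicate 2 and 1), 625 and 780 in the forebrain (1265 and 1502 without the filter) and 526 between tissues (1023 without the filter). Scaling by library size alone turned 637 higher of 1350 into 1057 of 1551, 416 of 922 into 752 of 1153, 194 of 625 into 176 of 369 and 290 of 780 into 415 of 643, and shifted the median of all genes to between 0.0723 and 0.106. Without WT replicate 1 or 2 the testes gave 131 or 118 and 231 or 85 calls. Without Ocn+/- replicate 1 or 3 the Ocn+/- testes gave 352 or 459, and without Ocn-/- replicate 1, 2 or 3 the Ocn-/- testes gave 409, 1559 or 589. The forebrain gave 183 and 189 without WT replicate 3, 373 and 363 without WT replicate 2, 273 to 312 in Ocn+/- without any Ocn+/- library, and 478 and 278 in Ocn-/- without Ocn-/- replicate 1 and 2. The 526 between tissues became 129 or 93 without testis WT replicate 1 or 2, 1070 without testis Ocn-/- replicate 2, 274 to 283 without any forebrain WT library and 347 without forebrain Ocn-/- replicate 2.

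Of 58 calls against WT among the other lists, 12 held under every alternative and 0 of 833 values changed sides. Without WT replicate 2, 4 of 14 calls were kept in Ocn+/- testes and 5 of 22 in Ocn-/- testes, and without WT replicate 3, 4 and 3 of 11 in the forebrain. Lone WT testes were assumed to vary like the other groups. Depth limits Actg2, Cnn1 and Lmod1 in the forebrain, which rest on at most 15 counts.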

Other observations

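The ratio of Myh11 to Acta2, the myosin motor and the main actin of smooth muscle, was looked at after the values of both genes were seen. In CPM per CPM it was 0.363 and 0.333 in the 2 WT testes, 0.277, 0.277 and 0.227 in Ocn+/- and 0.304, 0.329 and 0.287 in Ocn-/-. All 6 mutant testes were below both WT testes, with 0.329 against 0.333 as the nearest values. Single genes also lay without overlap in 46.7% of cases in Ocn+/- and 42.0% in Ocn-/-, and no such share was taken for ratios. In the forebrain, on far fewer counts, WT lay between 0.0833 and 0.385, Ocn+/- between 0.313 and 0.848, and Ocn-/- between 0.219 and 0.318, with overlap. The ratio was not tested.

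Acta1, the skeletal muscle actin and a striated relative of Acta2, rested on 0 and 1 counts in WT testes, on 1 in Ocn+/- replicate 1 and on 4 to 14 in the other mutant testes, and was not called. In the forebrain it had 1.98, 2.53 and 2.14 CPM in WT and between 2.96 and 4.44 CPM in the 6 mutants, all above WT, and was not called there either, at 12 to 59 counts.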
